A study of Mus musculus with 6 samples.

Results

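The genes described here are the Wnt ligands together with the genes that secrete, receive and trim the Wnt signal at the cell surface. They were taken as every probe of the array whose printed gene name equals one of 32 names, out of 36163 gene names on the array. The array holds 40 probes for them. By role they are 19 ligands, 3 genes of Wnt secretion and inactivation (Porcn, Wls, Notum), 4 co-receptor and Kremen genes (Lrp5, Lrp6, Kremen1, Kremen2), 3 Dishevelled genes and 3 cell-surface modulators (Apcdd1, Gpc3, Gpc4). The rule matched names and used no measured value, although the list was drawn up with earlier results of these data known.

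The study asked how prostate cells in which the promoter of s-SHIP, a short form of the inositol phosphatase SHIP1, was active differ from their neighbours. All samples came from 6-day-old male FVB/N mice carrying the Tg 11.5kb-GFP transgene, in which a fragment of that promoter drives green fluorescent protein (GFP), and no sample was treated. From digested prostate, cells without the lineage markers Ter119, CD31 and CD45 and with Sca-1 and CD49f (LSC cells) were sorted into LSC GFP+ and LSC GFP- populations, with 3 independent samples of each. Their RNA was amplified, labelled with Cy3 and hybridised to 6 mouse arrays, 1 per sample. Both populations carry the transgene, so GFP reports promoter activity and not a genetic change, and the study also describes GFP in smooth muscle cells of prostate vessels. How many animals each sample pooled is not given in the sources used here.

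Wnt proteins are secreted signals that need a lipid, attached by the acyltransferase Porcn, and the carrier Wls to leave the cell that makes them. On the receiving cell they bind a Frizzled receptor with the co-receptor Lrp5 or Lrp6, and Dishevelled passes the signal on to β-catenin or to other routes that set cell polarity and movement. Wnt signals take part in budding and branching of the developing prostate, in exchanges between epithelium and the mesenchyme around it.

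Signals are given as log2 of the processed signal minus the 75th percentile of the array, so that 0 is that percentile and a difference of 1 is a doubling. Levels of different probes are not comparable with each other. Between 36651 and 42123 probes per array carried the scanner software's mark for a signal well above background, and the correlation r of the log2 signals across probes was 0.963 to 0.979 over the pairs of arrays. The limma comparison was run on the probes that carried this mark on each of the 3 arrays of one population or of both, and for a count of genes the brightest probe of a gene, by its mean signal, was taken. Calls are made at an unadjusted p of 0.05, the threshold of the study's methods. Only 1 of 37005 probes, no member among them, passed an adjusted p of 0.05, which is 0.00270% of the probes tested. With 3 arrays against 3, an exact two-sided permutation test cannot give a p under 0.1. Smaller p values therefore rest on an assumed distribution of the errors, for which limma shares the spread over all probes.

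Of the 32 genes, 25 were well above background on all 6 arrays, 4 on some and 3 on none. Of the 27 genes tested, 4 were higher in LSC GFP+ (Wnt10b, Kremen2, Apcdd1 and Gpc3), against 3.38% of all genes tested, and 1 was lower (Wnt2b), against 4.28%. All 3 LSC GFP+ arrays lay above all 3 LSC GFP- arrays for the same 4 genes, against 6.50% of all genes, and below them for Wnt2b and Wnt10a, against 5.37%. Kremen2 entered the test through LSC GFP+ alone, being well above background on 3 LSC GFP+ and 2 LSC GFP- arrays. Its place in these counts thus depends in part on the filter. Among the 25 members well above background on all 6 arrays, 3 were higher and 3 lay entirely above. The shares of all genes given here belong to the wider filter, and none is given for this one, so these 2 counts have no comparison. None of the 27 passed an adjusted p of 0.05 with limma or with the methods' t-test. The median difference over the 27 genes was 0.04, and 16 lay above 0. Over all genes tested the median was -0.01, with quartiles of -0.18 and 0.17, and 49% lay above 0. In the fit blocked by replicate number, 4 members were higher and 2 lower, against 6.51% and 7.71% of all genes. The lower member this fit added, Wnt7a, entered the test through LSC GFP- alone, so its place also depends in part on the filter.

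Among the ligands, 13 of 19 were well above background on all 6 arrays: Wnt1, Wnt2b, Wnt4, Wnt5a, Wnt5b, Wnt6, Wnt7b, Wnt8b, Wnt9b, Wnt10a, Wnt10b, Wnt11 and Wnt16. Wnt7a was so on 5 arrays, Wnt3 and Wnt8a on 1 array each, and Wnt2, Wnt3a and Wnt9a on none. On a single array 36651 to 42123 of all 55681 probes carried the mark, so it is common on these arrays. The share of all genes with it on all 6 arrays is not given here. The genes of the sorting markers Sca-1 (Ly6a) and CD49f (Itga6), and the epithelial gene Cd24a, were well above background on all 6 arrays and did not differ past the threshold, while the probe of Inpp5d, the gene of SHIP1, was so on none. The mark speaks for the probe and not for a cell type. Probes of 5 of 6 leukocyte genes also carried it on all 6 arrays, Ptprc (CD45 itself) among them, although CD45+ cells had been sorted out. The ligand probes on no array had signals between -6.67 and -4.29, which bounds their level and does not show that the genes were silent.

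**Figure D1:**
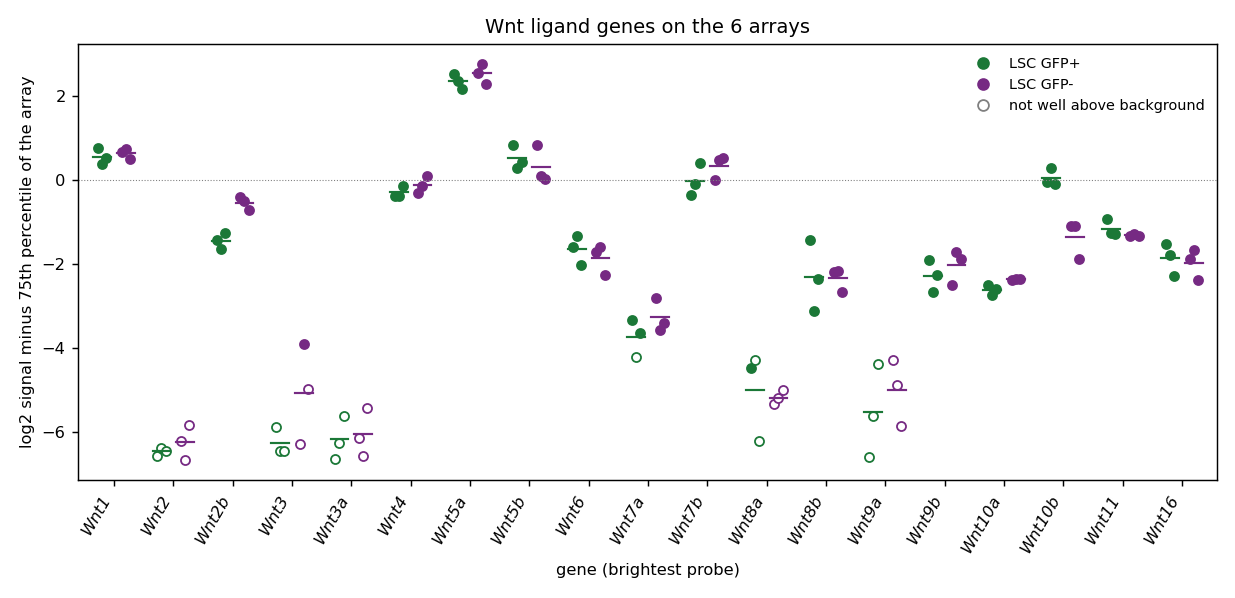
Log2 signal minus the 75th percentile of the array (y axis) for the brightest probe of each of the 19 Wnt ligand genes (x axis) on the 3 LSC GFP+ (green) and 3 LSC GFP- (purple) arrays, with open circles where the probe was not well above background and a bar at each mean. Wnt10b stands higher and Wnt2b lower in LSC GFP+ without overlap, Wnt10a differs by less, and Wnt2, Wnt3a and Wnt9a have open circles on every array.

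Wnt10b and Wnt2b are the ligands whose difference passed the test, in opposite directions. The probes that measured them lie on the minus strand of mm9 at chr15:98602209-98602268 and chr3:104748831-104748890. Their first 30 of 60 bases, as the array design prints them, are shown to identify what was hybridised, with no capitals because no part is marked.
Wnt10b: gggtgggaatggataatttattttactgag
Wnt2b: tcatttacccagcaaatctttattttgtga

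Wnt10b, a ligand of the β-catenin route with known roles in hair follicle, mammary gland and bone, had signals of -0.05, 0.28 and -0.10 in LSC GFP+ replicates 1, 2 and 3 and -1.09, -1.09 and -1.89 in LSC GFP-. The lowest LSC GFP+ array was above the highest LSC GFP- array. The mean was 0.04 ± 0.21 (SD, n = 3) in LSC GFP+ and -1.35 ± 0.46 (SD, n = 3) in LSC GFP-. The difference was 1.40 ± 0.27 (SE), or 2.63-fold, with a limma p of 9.4e-04 and an adjusted p of 0.139. It was the largest difference among the members tested and stayed past the unadjusted threshold under all 17 settings run, between 1.02 and 1.53. The study named Wnt10b as higher from these same arrays, and also reports it higher by quantitative RT-PCR. Its call here, and its place in the member counts, are therefore no independent support.

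Wnt2b, a ligand best known from mesenchyme of developing lung, liver and gut, ran the other way. Its signals were -1.44, -1.65 and -1.27 in LSC GFP+ and -0.41, -0.51 and -0.72 in LSC GFP-. All of LSC GFP+ lay below all of LSC GFP-. The difference was -0.90 ± 0.20 (SE), with a limma p of 0.00212 and an adjusted p of 0.186, which is 1.87-fold lower in LSC GFP+. Wnt2b was the single member called lower, and it too passed the unadjusted threshold under all 17 settings, between -1.0 and -0.64.

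Markers of other cells moved with the populations and stand beside both ligands. Of 8 stromal markers, 6 were lower in LSC GFP+ and 1, Dcn, was higher, with a median difference of -1.96. Over all genes tested, 4.28% were lower and 3.38% higher. Pdgfra, among the 6, entered the test through LSC GFP- alone. The summed level of the list (log2 of its summed signals) was 4.24 to 4.65 against an overlapping 4.41 to 5.91 in LSC GFP-. All 6 smooth muscle markers were lower, with a median difference of -1.73 and summed levels of 2.63 to 3.32 against 4.29 to 5.24. Of 8 basal markers, 5 were higher (Krt5, Krt14, Krt15, Dsc3 and Col17a1), with a median difference of 0.61 and summed levels of 7.83 to 7.93 against 7.41 to 7.49. Of the 4 glial and neuronal markers tested, Ncam1 was lower and the median was -0.95, and in the fit blocked by replicate number Sox10 (limma p of 0.0257) and Tubb3 (limma p of 0.00116) were lower too. None of the 3 endothelial and 5 leukocyte markers tested passed, with medians of -0.25 and -0.03. No marker of stroma or smooth muscle was at background on every array, and the basal marker Trp63 differed by 0.11 (SE 0.18). The part of these markers in the Wnt10b, Wnt2b and glypican values was not tested. In sorted bulk samples fewer cells of a type and less RNA per cell cannot be told apart.

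The windows of 250 bases before the RefSeq start of Wnt10b and Wnt2b are shown because these ligands moved in opposite directions. They were read from the GRCm38.p6 table, on the minus strand, at chr15:98778151-98778400 and chr3:104961710-104961959. Capitals mark the CCAAT box, searched on both strands together with CTTTGA, the core bound by TCF and LEF factors, and the 2 motifs do not overlap.
Wnt10b: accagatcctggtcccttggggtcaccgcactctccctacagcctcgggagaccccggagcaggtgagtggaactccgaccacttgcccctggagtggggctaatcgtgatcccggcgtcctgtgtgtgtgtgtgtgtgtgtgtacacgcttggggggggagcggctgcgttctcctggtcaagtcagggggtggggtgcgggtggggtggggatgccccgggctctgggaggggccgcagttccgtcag
Wnt2b: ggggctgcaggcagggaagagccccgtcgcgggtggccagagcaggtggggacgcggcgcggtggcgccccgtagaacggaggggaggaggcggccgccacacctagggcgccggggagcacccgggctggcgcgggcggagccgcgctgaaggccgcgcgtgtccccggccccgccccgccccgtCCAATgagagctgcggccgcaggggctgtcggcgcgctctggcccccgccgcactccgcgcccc
The Wnt10b window held neither motif, and the Wnt2b window held CCAAT once and no CTTTGA. Of the 32 genes, 22 had a window in the table, with 25 windows in all. CTTTGA was in 2 of these 25 windows (8%, those of Wnt5b and Wnt11), against 13.8% of 32851 windows of the same length, and CCAAT was in 7 (28%), against 33.8%. All member windows but that of Wnt8b (48.4% GC) were richer in GC than the median of all windows (52.4%), up to 87.6% for Wnt3a. The shares were not matched for GC. A match describes letters only and no match says nothing about a factor.

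Wnt10a, the closest relative of Wnt10b, did not follow it. Its signals were -2.51, -2.75 and -2.59 in LSC GFP+ and -2.38, -2.35 and -2.37 in LSC GFP-. LSC GFP+ lay entirely below LSC GFP-, but the difference of -0.25 (95% interval -0.67 to 0.17) did not pass limma's threshold, with a p of 0.208. The methods' t-test gave it a p of 0.0253, since it uses the spread of this probe alone, which was 0.02 (SD) among the LSC GFP- arrays. The neighbour of Wnt10a in the genome, Wnt6, differed by 0.21 (95% interval -0.41 to 0.83).

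Wnt7a, a ligand of epithelia, was near the limit of detection. It read -3.34, -4.22 and -3.64 in LSC GFP+, with the second of these not well above background, and -2.82, -3.57 and -3.41 in LSC GFP-. Wnt7a thus entered the test through LSC GFP- alone, the population in which its mean was higher. The populations overlapped, and the difference of -0.47 ± 0.30 (SE) had a limma p of 0.16. Within each pair of the same replicate number LSC GFP+ was the lower, by 0.52, 0.65 and 0.23, and the blocked fit gave a limma p of 0.0267.

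The 11 ligands that were seen on all 6 arrays and did not pass the threshold, Wnt10a among them, had differences between -0.35 and 0.21 and 95% intervals that together reached from -0.97 to 0.98. Wnt5a, a ligand of the polarity route, was among them: its signals were 2.52, 2.34 and 2.16 in LSC GFP+ and 2.54, 2.76 and 2.29 in LSC GFP-. Wnt4, which acts in kidney and the reproductive tract, also overlapped, with a difference of -0.18 (95% interval -0.64 to 0.29). Wnt7b, an epithelial ligand of lung and kidney, had -0.35 (95% interval -0.97 to 0.26). Wnt5b, a close relative of Wnt5a, had 0.21 (95% interval -0.43 to 0.85). Wnt11, a polarity ligand found at the tips of branching kidney ducts, had 0.16 (95% interval -0.29 to 0.61). None of these intervals left out 0, and the populations overlapped for each. Wnt16, known for its role in bone, had 0.12 at its brighter probe and 0.15 at its dimmer one. For Wnt8b the interval, from -0.91 to 0.98, was the widest of the members tested.

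Wnt3 and Wnt8a were well above background in 1 population only, on 1 array each. Wnt3 read -5.89, -6.45 and -6.45 in LSC GFP+ and -6.29, -3.90 and -4.97 in LSC GFP-, where only the array at -3.90 was well above background. Wnt8a read -4.47, -4.28 and -6.22 in LSC GFP+, where only the array at -4.47 was well above background, and -5.33, -5.19 and -5.01 in LSC GFP-. Neither allows a fold, because the mean of the brighter population lay under the lowest signal of any probe marked well above background on the arrays of the other. A further Wnt8b probe was well above background on 1 LSC GFP+ array and on no LSC GFP- array, and so was not tested. It read -4.33, -4.53 and -4.38 in LSC GFP+ and -4.76, -5.73 and -4.87 in LSC GFP-. These values did not overlap, but with only 1 of them well above background no fold or bound is given.

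Some of the Wnt genes lie in neighbouring pairs, among them Wnt6 and Wnt10a on chromosome 1 and Wnt1 and Wnt10b on chromosome 15. Wnt1, whose brightest probe is at chr15:98623276-98623335 beside Wnt10b, differed by -0.09 (95% interval -0.54 to 0.37). Wnt9b and Wnt3 are neighbours on chromosome 11, as are Wnt3a and Wnt9a, and of these 4 only Wnt9b was seen on all 6 arrays, with a difference of -0.25. Differences between neighbours were not tested.

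The machinery of Wnt secretion and inactivation was detected throughout and did not pass the test. Porcn read -1.97, -2.08 and -1.78 in LSC GFP+ and -1.85, -2.15 and -2.08 in LSC GFP-. Wls read 2.61, 2.80 and 3.31 against 2.72, 2.86 and 3.34. Notum, a secreted enzyme that strips the lipid from Wnt and silences it, read 2.52, 2.40 and 2.24 against 2.61, 2.65 and 2.40. The populations overlapped for all 3 genes, with differences from -0.16 to 0.08, standard errors of 0.19 to 0.27 and 95% intervals that together reach from -0.68 to 0.54.

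The co-receptors Lrp5 and Lrp6 were alike in this respect, with differences of -0.04 (95% interval -0.50 to 0.42) and 0.04 (95% interval -0.48 to 0.56). The Kremen genes encode receptors for Dickkopf that take Lrp6 off the cell surface. Kremen1 had a difference of 0.35 (95% interval -0.16 to 0.86) and overlapped between the populations.

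Kremen2 was the gene that passed in the group of co-receptor and Kremen genes. Its probe lies at chr17:23878483-23878542 of mm9, on the minus strand, and its first 30 bases are shown because this dim probe carries the result alone.
Kremen2: tccagatgactgaagccaaaggacaaaggg
Its signals were -2.01, -2.67 and -2.68 in LSC GFP+ and -4.12, -3.29 and -3.40 in LSC GFP-, where the array at -4.12 was not well above background. The populations did not overlap, and within the pairs of the same replicate number the gap was 2.11, 0.62 and 0.72. The difference was 1.15 ± 0.30 (SE), or 2.22-fold, with a limma p of 0.00499 and an adjusted p of 0.261. With normexp background correction it fell to 0.26 with a limma p of 0.232. That setting also starts from the mean spot signal and adds an offset of 50. Which of these steps lowered the value was not tested.

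The Dishevelled genes did not pass the test. Dvl1, Dvl2 and Dvl3 had differences from 0.00 to 0.15, with 95% intervals that together reach from -0.56 to 0.87, and their populations overlapped. Dvl2 has a further probe, which gave 0.25 (95% interval -0.19 to 0.69).

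**Figure D2:**
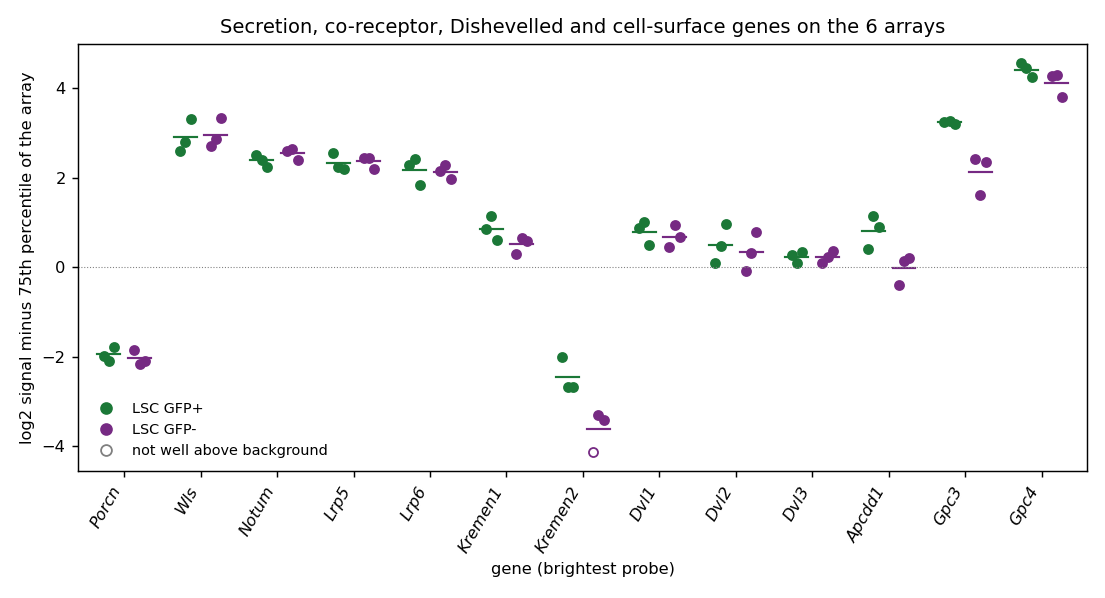
Log2 signal minus the 75th percentile of the array (y axis) for the brightest probe of the 13 genes other than ligands (x axis) on the 3 LSC GFP+ (green) and 3 LSC GFP- (purple) arrays, with an open circle where the probe was not well above background and a bar at each mean. The secretion, LRP and Dishevelled genes overlap between the populations, while Kremen2, Apcdd1 and Gpc3 are higher in LSC GFP+ without overlap.

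The cell-surface modulators were the group in which most members were higher. Apcdd1, a membrane protein that binds Wnt and Lrp5 and inhibits the signal, read 0.41, 1.14 and 0.91 in LSC GFP+ and -0.39, 0.14 and 0.22 in LSC GFP-. The populations did not overlap, and within each pair of the same replicate number LSC GFP+ was higher by 0.80, 1.0 and 0.68. The difference was 0.83 ± 0.27 (SE), or 1.77-fold, with a limma p of 0.0159 and an adjusted p of 0.411. The call was lost without LSC GFP- replicate 1, at 0.63 with a limma p of 0.0688, and without LSC GFP+ replicate 2, at 0.67 with a limma p of 0.0631.

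Glypicans are heparan sulphate proteoglycans held on the membrane by a lipid anchor, and they bind Wnt and other growth factors. Gpc3 and Gpc4 lie near each other on the X chromosome and each has a pair of probes. Only the brighter probe of Gpc3 and only the dimmer probe of Gpc4 passed the test, so all 4 are shown by their first 30 bases. All are on the minus strand of mm9, at chrX:49625740-49625799 and chrX:49740892-49740951 for Gpc3 and at chrX:49406100-49406159 and chrX:49406560-49406619 for Gpc4.
Gpc3, brighter probe: aaatggtatctttatgaggatggtaaattt
Gpc3, dimmer probe: gctctcagttattgggagtgaactttgcat
Gpc4, brighter probe: tgccttattgggagagaagtggagttgact
Gpc4, dimmer probe: tcctagtgactttgctttttaaatgaatgg

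The brighter Gpc3 probe read 3.26, 3.27 and 3.21 in LSC GFP+ and 2.43, 1.62 and 2.36 in LSC GFP-. The LSC GFP+ arrays had an SD of 0.03 and lay above all of LSC GFP-, whose SD was 0.45. The difference was 1.11 ± 0.25 (SE), or 2.16-fold, with a limma p of 0.00241 and an adjusted p of 0.196, and it passed the unadjusted threshold under all 17 settings, between 0.86 and 1.26. The dimmer Gpc3 probe was well above background on no array, with signals between -6.76 and -6.25, and belongs to a different transcript in the array design.

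Both probes of Gpc4 had a higher mean in LSC GFP+, but only the dimmer one passed the test. The brighter one read 4.56, 4.46 and 4.25 in LSC GFP+ and 4.28, 4.31 and 3.81 in LSC GFP-, with overlap, and its difference of 0.29 ± 0.22 (SE) had a limma p of 0.222. The dimmer one read 3.44, 3.54 and 3.42 in LSC GFP+ and 2.62, 2.18 and 2.36 in LSC GFP-. The dimmer probe showed no overlap, with a difference of 1.08 ± 0.20 (SE), a limma p of 6.4e-04 and an adjusted p of 0.129. By the rule of the highest mean signal Gpc4 was not among the genes called, and the mean of both probes gave 0.68 with a limma p of 0.00648. The array design gives the dimmer probe a RefSeq transcript of Gpc4 and the brighter one an Ensembl transcript. The difference between the probes was not tested.

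**Figure D3:**
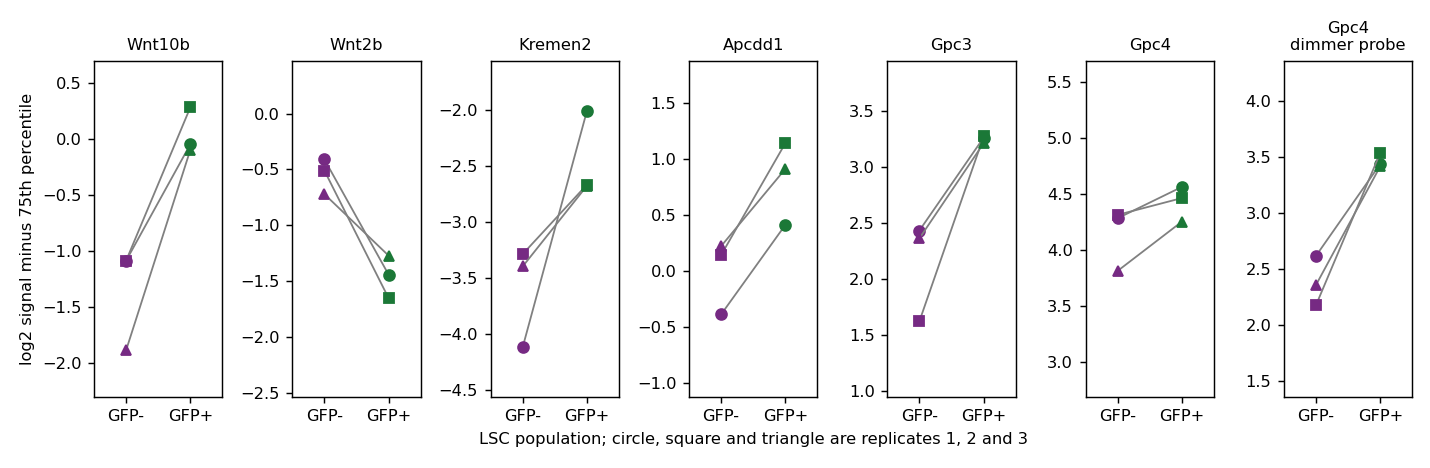
Log2 signal minus the 75th percentile of the array (y axis) in LSC GFP- and LSC GFP+ (x axis) for 7 probes, each panel with its own level but the same length of scale, where circles, squares and triangles are replicates 1, 2 and 3 and lines join the same replicate number. All 3 lines fall for Wnt2b and all 3 rise for Wnt10b, Kremen2, Apcdd1, Gpc3 and both Gpc4 probes, by less for the brighter Gpc4 probe.

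Where a gene had a further tested probe, the probes mostly told the same. The dimmer probes of Wnt1, Wnt16, Lrp6, Kremen1 and Dvl2 had differences of -0.02, 0.15, 0.11, 0.15 and 0.25, none past the threshold, and their brighter probes did not pass either. Gpc4 was the exception, with only its dimmer probe past the threshold.

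Over all 33 member probes tested, 6 passed an unadjusted p of 0.05 in limma. In LSC GFP+ 5 were higher, against 3.38% of all 37005 probes tested, and 1 was lower, against 4.53%. The GC content of these 6 lay between 30% and 45%, with a median of 37.5%, and that of the other 27 between 35% and 76.7%, with a median of 45%. The differences of those 27 lay between -0.47 and 0.35, with 95% intervals that together reach from -1.16 to 0.98. A doubling or a fall of the same size lay outside the interval of each of these 27 probes except that of Wnt7a.

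**Figure D4:**
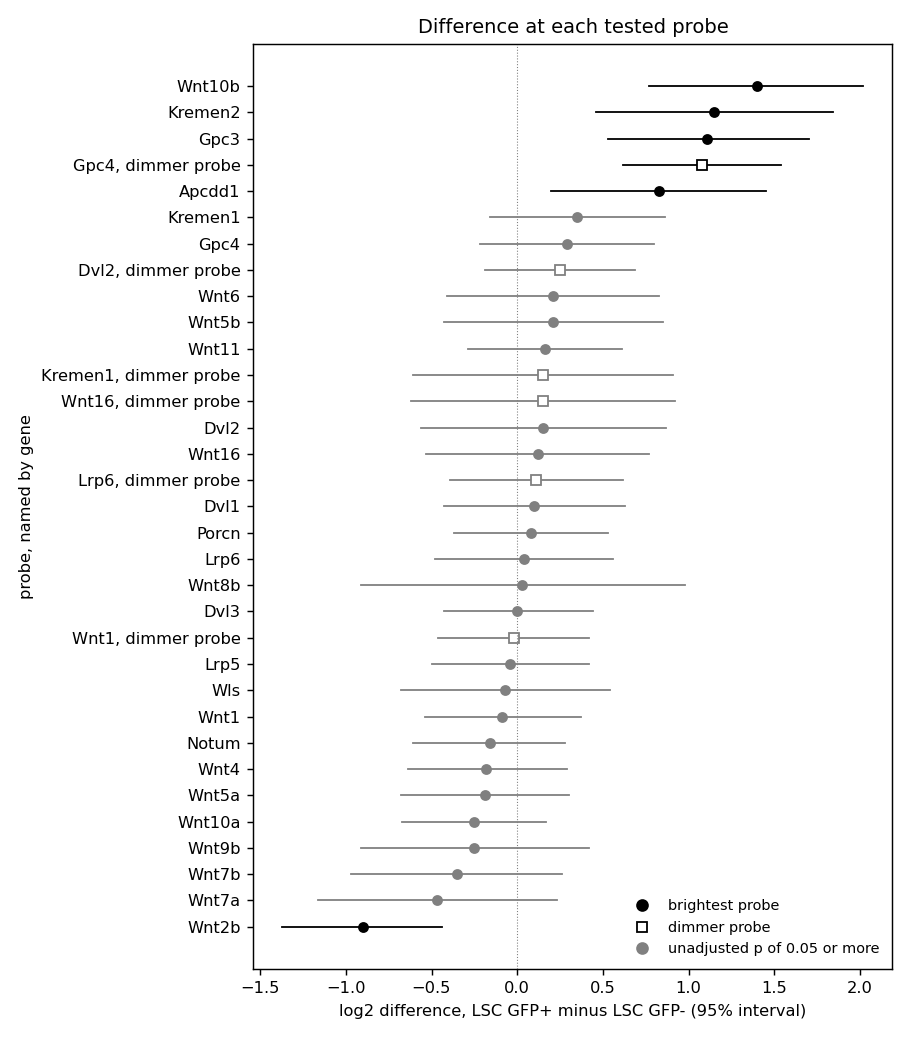
Difference in log2 signal, LSC GFP+ minus LSC GFP- (x axis, with 95% intervals from limma), for the 33 member probes tested (y axis, ordered by the difference), with circles for the brightest probe of a gene, squares for dimmer probes and grey where the unadjusted p was 0.05 or more. Wnt10b at 1.40 and Wnt2b at -0.90 are the ends of the order, and 27 probes cross 0.

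Other genes of the pathway, outside the 32, were counted from a list of 61, of which 53 were tested. At the unadjusted threshold 18 were higher in LSC GFP+ and 3 lower, against the 3.38% and 4.28% of all genes given above, with a median difference of 0.23. The list was drawn up with earlier results known and holds genes the study named from these arrays, such as Lgr5, Lgr6, Fzd9, Ror1, Ror2, Lef1, Wif1 and Sfrp1. These counts are therefore no independent support. Fzd9 and Ror2 entered the test through LSC GFP+ alone, and Rspo3 through LSC GFP- alone. Of 14 receptors, 6 were higher (Fzd1, Fzd7, Fzd9, Fzd10, Ror1 and Ror2), none was lower, and the median was 0.48, and the blocked fit added Fzd5 (limma p of 0.0422). Of the 6 Lgr, R-spondin and ligase genes tested, Lgr4, Lgr5, Lgr6, Rnf43 and Znrf3 were higher and the R-spondin Rspo3 was lower, with a median of 0.69. Lgr receptors bind R-spondins, and Rnf43 and Znrf3 are the ligases that clear Frizzled from the membrane. Of the 8 secreted antagonists tested, some of which bind Wnt itself and some Lrp, Sfrp2 and Wif1 were higher and Sfrp1 and Sostdc1 lower, with a median of 0.13. Among the 15 genes of β-catenin, its destruction complex and the nuclear factors, Tcf7 and Lef1 were higher and the median was 0.16, and the blocked fit added Ctnnb1 (limma p of 0.0394) and Pygo1 (limma p of 0.0222). Of 10 other glypican, Lrp4 and Dishevelled regulator genes, Gpc6, Lrp4 and Dact1 were higher, and the median was 0.14.

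Set beside these, the 14 ligands tested had a median of -0.13, with 6 above 0, and the 13 other members a median of 0.10, with 10 above 0. Among the other pathway genes, Wif1 (1.97), Dact1 (1.92), Fzd9 (1.78), Lef1 (1.58) and Ror1 (1.49) had larger positive differences than Wnt10b at 1.40. Rspo3 at -1.61 and Sfrp1 at -1.57 differed by more than Wnt10b in the other direction. No test compared the groups of genes.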

How the data were processed

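RNA of 3 LSC GFP+ and 3 LSC GFP- samples was measured on 6 arrays of a single colour, which lie on 1 slide and 1 scan, so no batch could be compared. The deposited values used here are linear intensity values, the processed signals of Agilent Feature Extraction (11.0.1.1 per the file headers, 10.7.3.1 per the submitters' processing notes), with background subtracted, a spatial trend removed and no normalization between arrays. The value table of the series holds the same signals rounded to 3 significant digits. Probe positions come from the array design, which uses mm9, and exon or UTR status was not analysed here.

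After log2 each array's 75th percentile was subtracted, spots marked as outliers (123 to 154 per array) were left out, and spots of a probe were averaged. Members were matched on the printed gene name, and the lists beside them through RefSeq accessions where a probe had one (26582 of 55681 probes). Where all 3 arrays of one population or of both had the probe well above background, the populations were compared by limma 3.58.1 (lmFit, eBayes; R 4.3.3) with two-sided p values and the Benjamini-Hochberg adjustment over 37005 probes. The script was tested on simulated data. The number of arrays limits the precision, and the p values measure the spread between these samples. Promoter windows and gene names came from RefSeq tables of GRCm38.p6.

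To check whether the replicate numbers in the labels pair the samples, deviations from the population means were correlated across probes. The correlation was 0.433 between the samples numbered 1, 0.277 between those numbered 2 and 0.668 between those numbered 3. Each exceeded 0.1, so gaps within a number are given as pairs. The main fit did not use this pairing. Errors, intervals, p values and calls come from that unpaired fit unless the blocked fit is named. Of the other 6 combinations, 1 reached 0.223 and the others were below 0. The fit with the number as a block was an alternative, as were the rounded value table, array median scaling, quantile normalization, normexp background correction (offset 50), other filters, the methods' t-test, an intensity trend, the mean over probes of a gene, and each array left out in turn.

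The members, the lists and the alternatives were chosen with earlier results of these data known. Every member is accounted for. Values per array were to be given for members past the threshold, without overlap, with probes that disagree in sign, or seen in 1 population only. Those of Wnt5a, Wnt7a, Porcn, Wls and Notum were added after they were seen. Pathway genes are given by list, naming those past the threshold. A marker list of luminal epithelium is not reported here.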

Additional observations from a re-analysis of the deposited data

How the results depend on the processing

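Of the results for single genes, 135 values under an alternative kept their direction and side of the threshold, 6 changed side and none reversed, and those 6 stand beside the genes in the text. Of the counts and medians, 139 values kept within their bounds. The count of members lower in LSC GFP+ (1) was 2 with the methods' t-test, which added Wnt10a, and 2 with the replicate block, which added Wnt7a. The replicate block raised the probes past the unadjusted threshold from 2925 to 5480 and changed no other call on a member named here. The median over members (0.04) ranged from -0.01 to 0.10 with 1 array left out, and was -0.01, on the other side of 0, without LSC GFP+ replicate 1. The members entirely above (4) ranged from 4 to 7 with 1 array left out, with 7 without LSC GFP+ replicate 3. They were 3 when only probes well above background on all 6 arrays were kept. The members entirely below (2) ranged from 2 to 5, with 5 without LSC GFP- replicate 1 and 4 without replicate 3 of either population, and were 1 with quantile normalization and 1 with scaling by the array median. A comparison of fewer arrays leaves less room for overlap. With no filter on dim probes, 5 other pathway genes were lower in place of 3. Scaling by the array median moved the median of all probes by 0.07 and turned the split of 1250 higher and 1675 lower probes into 1471 and 1299, with the same number of members called. The cause of the other moves was not tested. The higher pathway genes (18) ranged from 12 to 17 and the higher members (4) from 3 to 4 with 1 array left out. Signal over background limits Wnt7a, Kremen2 and the ligand probes seen on few or no arrays, whose levels are bounds.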
